A study of Mus musculus with 4 samples.

Results

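Imprinted genes are transcribed mainly from the chromosome of 1 parent, so that in reciprocal hybrids of 2 inbred strains the strain that supplies the expressed copy is swapped. The set held 56 such genes of known mouse imprinted domains, chosen from general knowledge of imprinting, out of 18193 genes that the array's annotation named by a single symbol. For 50 members at least 1 probe set carried the gene's symbol alone; 32 of these passed a filter on brightness and were tested, and 18 were dim. The brightest probe set over the 4 arrays stood for each gene. H19, Rtl1, Zrsr1, Peg13, Kcnk9 and Slc22a3 had no such probe set and were not analysed here. H19 shares its probe set with the microRNA gene Mir675, and 6 of the 7 probe sets annotated for Snrpn also name Snurf, so that Snrpn was read by its 1 remaining, dim probe set.

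Liver RNA came from whole slices of 4 male mice aged 9 months, all kept on chow without intervention, and each was hybridised to its own Affymetrix array. AB6F1 males (n = 2) had an AJ mother and a B6 father, whereas B6AF1 males (n = 2) had a B6 mother and an AJ father. Maternally expressed genes were therefore read from the AJ copy in AB6F1 and from the B6 copy in B6AF1, and paternally expressed genes the other way round, wherever imprinting holds. The arrays measured total transcript and could not tell the parental copies apart, and differences are given as AB6F1 minus B6AF1 on the log2 scale. Males of these crosses also differ in the origin of the X and Y chromosomes and the mitochondria, which cannot be told apart from the imprinted copies.

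In imprinted domains a control region carries DNA methylation on the copy of 1 parent, laid down in egg or sperm and then kept through cell division by the maintenance methyltransferase Dnmt1 and by the zinc finger protein Zfp57 with its partner Trim28. A domain often holds genes of both parental classes, such as the growth factor gene Igf2 beside the noncoding RNA H19, or the receptor Igf2r beside the antisense RNA Airn that silences its paternal copy. Many imprinted genes promote or restrain fetal growth, are active in fetal liver and are shut down there after birth, while others, such as Igf2r, stay active in adult hepatocytes.

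The 250 bases before the transcription start are shown for 4 members to which the results return. RefSeq's promoter table for build GRCm38.p6 held 44 of the 56 members. Igf2r is shown as a maternally expressed gene whose start lies in a CpG-rich stretch (chr17:12769707-12769956, minus strand, 27 CpG), Rasgrf1 as the tested member of smallest p (chr9:89909525-89909774, plus strand, 21 CpG) and Slc22a18 as the member of second smallest p, with 0 CpG (chr7:143473539-143473788, plus strand). Capitals mark CpG in these 3 sequences. In Mest, which has 3 promoters in the table, capitals mark the 2 matches to TGCCGC, the letters of the Zfp57 motif, searched on both strands (chr6:30737800-30738049, plus strand).
Igf2r: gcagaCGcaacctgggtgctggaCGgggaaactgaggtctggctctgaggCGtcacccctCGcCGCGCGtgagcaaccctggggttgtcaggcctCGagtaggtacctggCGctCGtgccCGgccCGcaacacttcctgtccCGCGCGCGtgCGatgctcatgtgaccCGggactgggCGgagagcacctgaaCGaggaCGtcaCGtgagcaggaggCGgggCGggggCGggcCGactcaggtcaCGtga
Rasgrf1: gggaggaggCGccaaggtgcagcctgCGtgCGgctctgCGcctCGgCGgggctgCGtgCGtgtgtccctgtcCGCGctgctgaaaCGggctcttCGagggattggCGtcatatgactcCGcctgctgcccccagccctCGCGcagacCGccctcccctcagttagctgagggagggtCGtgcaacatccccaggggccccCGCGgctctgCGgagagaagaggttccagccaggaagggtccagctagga
Slc22a18: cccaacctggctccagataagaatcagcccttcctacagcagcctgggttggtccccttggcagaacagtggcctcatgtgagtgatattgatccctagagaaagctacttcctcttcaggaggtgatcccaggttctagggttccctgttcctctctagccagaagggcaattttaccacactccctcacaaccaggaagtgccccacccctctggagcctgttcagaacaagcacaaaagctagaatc
Mest: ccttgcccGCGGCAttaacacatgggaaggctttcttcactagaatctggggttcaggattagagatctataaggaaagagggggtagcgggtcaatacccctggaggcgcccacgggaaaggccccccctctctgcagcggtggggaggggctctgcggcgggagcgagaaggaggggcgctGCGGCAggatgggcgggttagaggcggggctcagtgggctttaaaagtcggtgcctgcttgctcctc

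Promoters of the members had a median of 10 CpG in 250 bases (67 promoters), and all 32851 promoters of the table had a median of 6. At least 1 match to TGCCGC on either strand lay in 8 of the 67, or 11.9%, and in 8.68% of all promoters. Such a match is a description of the letters only, and no methylation was measured.

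Every array had been scaled to a trimmed mean signal of 500, and the median signal of all probe sets ran from 67.2 to 78. The filter lay at a signal of 60.9, the median of all probe sets. Magel2, at a geometric mean signal of 65.5 over the 4 arrays, and Cdkn1c, at 76.6, lay just inside it, and Dlk1, at 59.5, and Igf2, at 57.5, lay just outside. With 2 mice in each cross an exact permutation test of a single gene cannot give a p below 0.333, and the number of arrays limits the precision of every value. Source identifiers fell in 1 run of numbers for AB6F1 and in another for B6AF1, and handling by such a run cannot be told apart from the strain of the mother.

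No imprinted gene differed between the crosses by limma with Benjamini-Hochberg adjustment. Among all 11748 genes tested 25 passed, or 0.213%. The smallest adjusted p of the 32 tested members was 0.431. At an unadjusted p under 0.05 there was 1 member, Rasgrf1, or 3.12%, against 9.72% of all genes. Without AB6F1 replicate 2 there were 5, Ddc, Slc22a18, Rasgrf1, Ppp1r9a and Slc38a4, or 15.6%, against 14.3% of all genes. Both arrays of 1 cross lay above both of the other for 12 of the 32, or 37.5%, and for 41.2% of all genes. The 95% interval of the difference lay within 2-fold in either direction for 20 of the 32 members, or 62.5%, against 66.8% of all genes. The median absolute difference was 0.26 over the members and 0.20 over all genes.

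**Figure D1:**
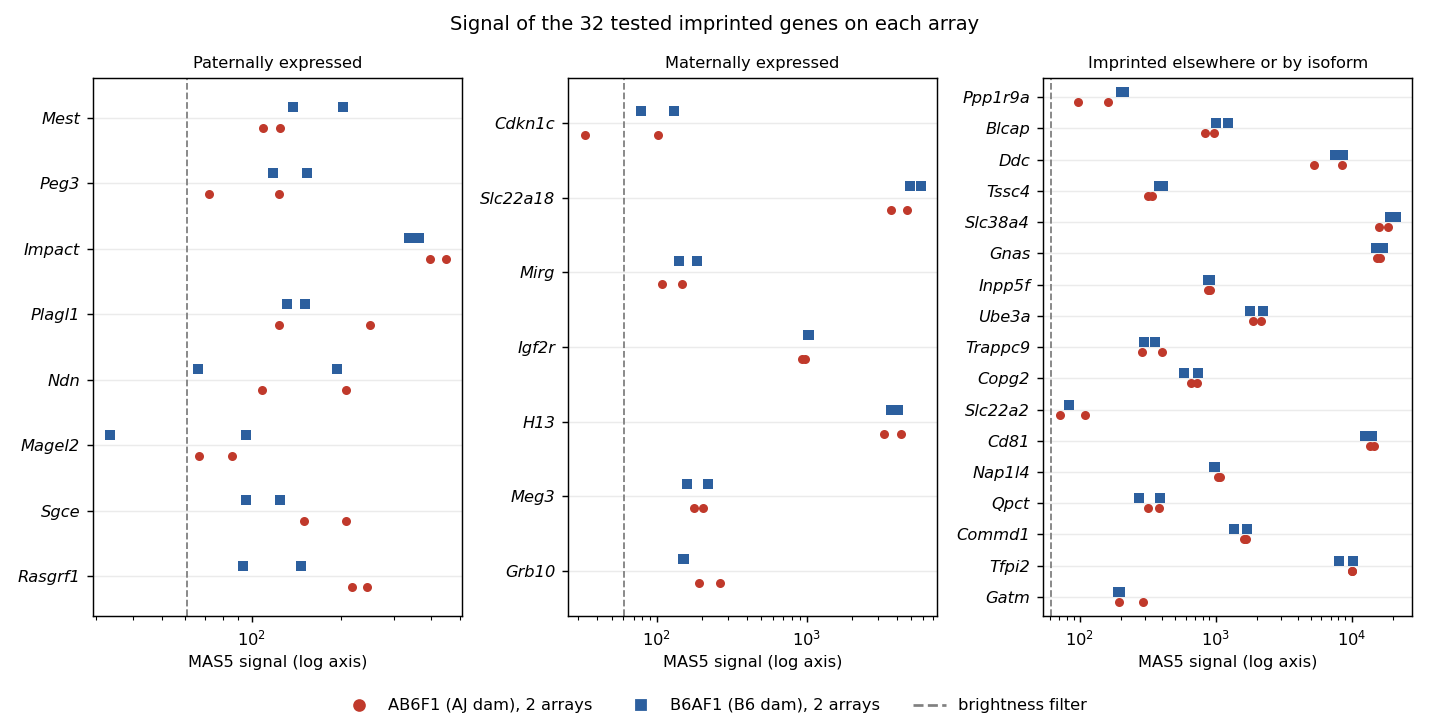
MAS5 signal on a log axis for the 32 tested imprinted genes, with 1 point for each array, circles for AB6F1 and squares for B6AF1, in 3 panels by the expressed parental copy. The points of the crosses stand apart for 12 genes, among them Rasgrf1, Sgce, Slc22a18 and Ppp1r9a, and overlap for the other 20; Magel2 and Cdkn1c each have an array below the dashed line of the filter at 60.9.

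Of 21 paternally expressed members 8 were tested. In AB6F1, where the expressed copy is that of B6, 6 of these were higher, against 53.5% of all genes. The median difference of the 8 was 0.36, and that of all genes was 0.02. Without B6AF1 replicate 2 the median of the 8 was -0.02, with 4 higher and 4 lower, so that the upward median rests on that array. Without _x_at and _s_at probe sets 4 of 7 were higher, with a median of 0.26. None of the 8 passed limma over all genes, and the smallest adjusted p was 0.431.

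Rasgrf1, a Ras guanine nucleotide exchange factor best known from brain, had signals of 244 and 218 in AB6F1 males against 93.8 and 146 in B6AF1 males. Both AB6F1 arrays lay above both B6AF1 arrays, with means of 231 ± 18.5 (SD, n = 2) and 120 ± 37.1 (SD, n = 2). The difference was 0.98 ± 0.33 (SE; 95% interval 0.19 to 1.76; limma adjusted p = 0.431). It was read by a probe set of suffix _s_at, which can bind related transcripts, and the other 2 probe sets of the gene were dim, at 0.63 and -0.53.

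Sgce, the membrane protein epsilon-sarcoglycan, read 207 and 150 in AB6F1 and 96 and 125 in B6AF1. The crosses did not overlap, and the difference was 0.69 ± 0.35 (SE; 95% interval -0.15 to 1.52; limma adjusted p = 0.591). Sgce shares a promoter region with Peg10, whose single probe set was dim. Impact, a regulator of translation under amino acid shortage, stood at 396 and 447 in AB6F1 against at 365 and 338 in B6AF1. Its difference of 0.26 ± 0.19 (SE) had an interval from -0.19 to 0.71, the only one of the 8 that lay within 2-fold.

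Mest, a protein of the hydrolase fold whose fetal level is high, went the other way. AB6F1 males had 125 and 109 against 138 and 202 in B6AF1, without overlap, a difference of -0.52 ± 0.35 (SE; 95% interval -1.34 to 0.31; limma adjusted p = 0.671). Peg3, a zinc finger protein, also had a negative difference, -0.51 ± 0.43 (SE), with overlapping arrays, and its other probe set above the filter gave -0.92.

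The remaining 3 paternal members had wide intervals. Plagl1, a zinc finger transcription factor that binds other imprinted genes, had overlapping arrays, and its 2 probe sets above the filter disagreed in sign, at 0.32 ± 0.40 and -0.42 ± 0.64 (SE). The MAGE family genes Ndn and Magel2 lie next to each other in the domain of Snrpn and Ube3a. Ndn read 207 and 109 in AB6F1 against 193 and 66.1 in B6AF1, and Magel2 85.9 and 66.8 against 96.1 and 33.4. For both genes B6AF1 replicate 2 was the lowest of the 4 arrays, and the differences of 0.41 and 0.42 became -0.37 and -0.34 without it. The 4 probe sets of Ndn above the filter gave similar values, from 0.36 to 0.47.

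**Figure D2:**
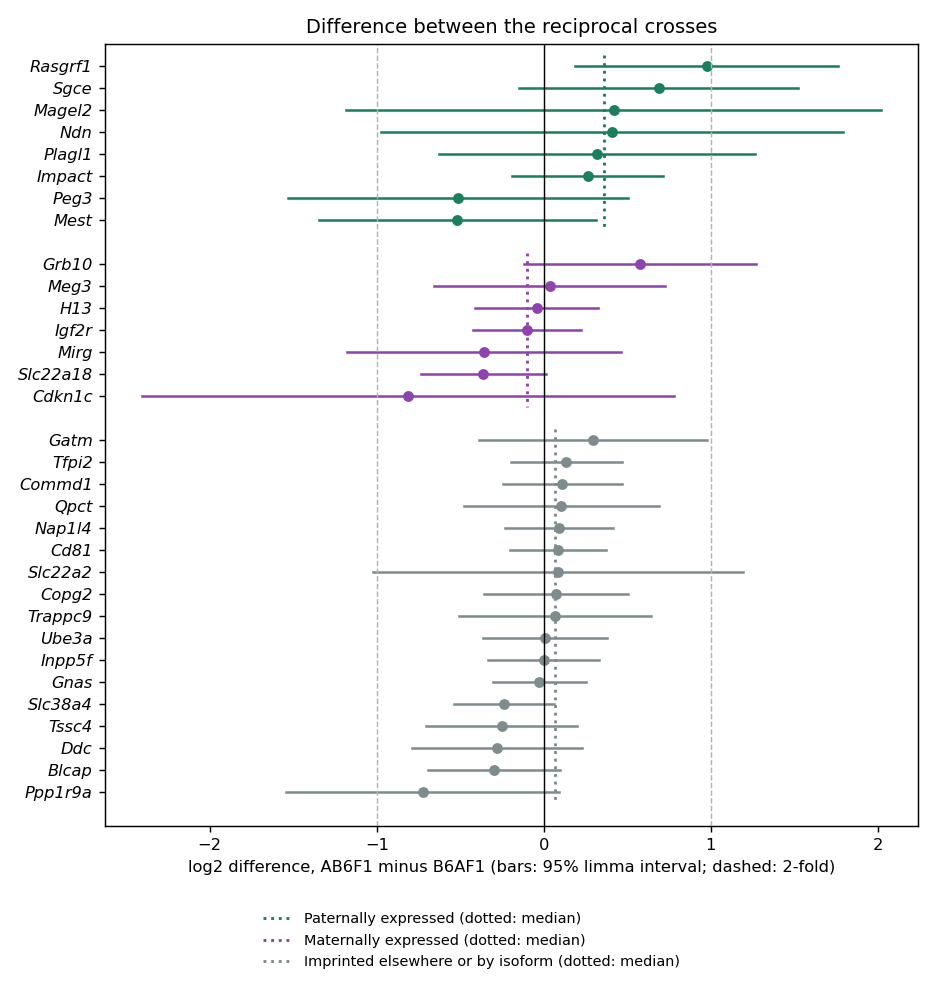
Difference between the crosses (log2, AB6F1 minus B6AF1) for each tested imprinted gene, with bars for the 95% limma interval, dotted lines for the medians of the 3 groups and dashed lines at 2-fold. Only the bar of Rasgrf1 leaves out 0; bars of the paternally expressed genes are wide, and those of most genes in the lowest group stay within 2-fold.

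Of 13 maternally expressed members 7 were tested. In AB6F1, where the expressed copy is that of AJ, 5 of these were lower, and 53.5% of all genes were higher. The median difference of the 7 was -0.10 and no member passed limma over all genes, with a smallest adjusted p of 0.524. With dim genes kept the median turned to 0.12, with 7 of 12 higher. It was -0.24 after median centring, where that of all genes was -0.11, and -0.20 without B6AF1 replicate 2.

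Slc22a18, a member of the organic cation transporter family, read 3659 and 4651 in AB6F1 and 4884 and 5767 in B6AF1. Both AB6F1 arrays lay below both B6AF1 arrays, at a difference of -0.36 ± 0.16 (SE; 95% interval -0.74 to 0.01; limma adjusted p = 0.524). Its second probe set had the same order, with 1587 and 2285 against 2446 and 3028, at -0.52 ± 0.19 (SE; limma adjusted p = 0.634 over all probe sets). By the first probe set the B6AF1 level was 1.29-fold that of AB6F1.

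Igf2r, the receptor that clears Igf2 and sorts lysosomal enzymes, was the most tightly measured maternal member. AB6F1 males had 977 and 936 and B6AF1 males 1018 and 1032, with group means of 957 ± 28.6 (SD, n = 2) and 1025 ± 10 (SD, n = 2). The arrays did not overlap, yet the difference was only -0.10 ± 0.14 (SE; 95% interval -0.43 to 0.23; limma adjusted p = 0.844), and the second probe set gave 0.20 ± 0.18 (SE). On that second probe set the arrays did not overlap either, in the opposite order, with 567.3 and 664.4 in AB6F1 against 564.2 and 508.7 in B6AF1. H13, a signal peptide peptidase, read 4252 and 3284 in AB6F1 and 3641 and 4075 in B6AF1, with overlap, at -0.04 ± 0.16 (SE; 95% interval -0.41 to 0.33). Among its 3 other probe sets above the filter the lowest gave -1.07 ± 0.54 (SE), with 53.5 and 51.4 in AB6F1 and 107 and 114 in B6AF1.

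Grb10, an adaptor that restrains insulin and growth factor receptors, was on the opposite side to most of this group. It read 190 and 264 in AB6F1 against 151 and 150 in B6AF1, without overlap, at 0.57 ± 0.29 (SE; 95% interval -0.12 to 1.27; limma adjusted p = 0.584), and a second probe set gave 0.53. Cdkn1c, an inhibitor of cyclin-dependent kinases, spread widely, with 33 and 101 in AB6F1 against 78.4 and 131 in B6AF1. Its difference of -0.81 ± 0.67 (SE) had an interval from -2.40 to 0.78 and was -0.0023 without AB6F1 replicate 1, the lowest array.

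The noncoding RNAs Meg3 and Mirg belong to 1 domain, read from the maternal copy beside the paternal Dlk1. Meg3 stood at 178 and 204 in AB6F1 and at 219 and 158 in B6AF1, a difference of 0.03 ± 0.29 (SE). Its 5 probe sets above the filter ran from -2.01 to 0.71, the widest disagreement of any member. Mirg read 147 and 108 in AB6F1 and 185 and 141 in B6AF1, at -0.36 ± 0.35 (SE; limma adjusted p = 0.775), with overlapping arrays.

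**Figure D3:**
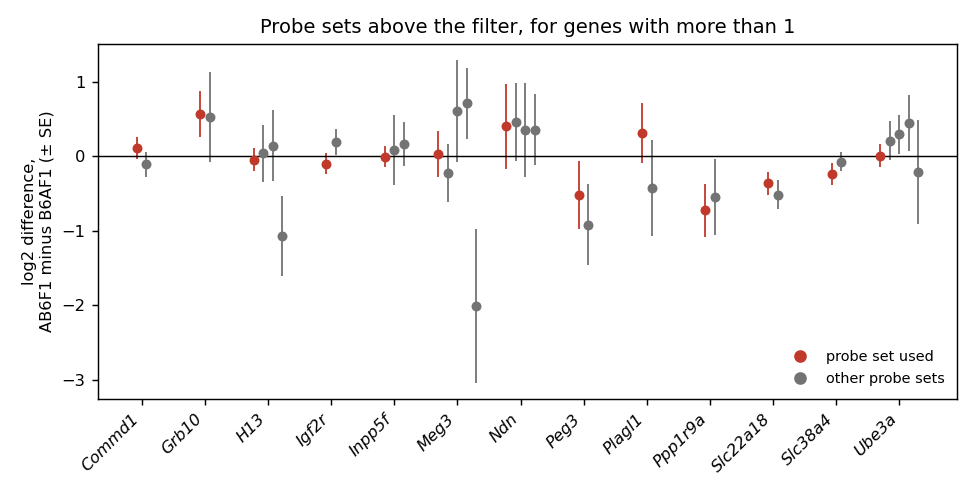
Difference between the crosses (log2, AB6F1 minus B6AF1, bars ± SE) for each probe set above the filter, for the 13 members with more than 1, with the probe set that stands for the gene in red. The probe sets shared 1 sign for 6 genes, Grb10, Ndn, Peg3, Ppp1r9a, Slc22a18 and Slc38a4, and Meg3 spread from -2.01 to 0.71.

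The last group, of 22 members, is imprinted mainly in placenta, brain or early embryo, depends on the isoform, or is read from both copies in liver. Of these 17 were tested, 10 higher and 7 lower, with a median of 0.07, and none passed limma over all genes (smallest adjusted p = 0.553). After median centring, which lowers every difference alike, only 1 of the 17 was higher, with a median of -0.071. The median of all genes was then -0.11, and the group stayed 0.042 above it, as before centring. Without AB6F1 replicate 2 and without B6AF1 replicate 1 there were 7 higher and without B6AF1 replicate 2 there were 8, each with a median below 0, so that the group had no settled direction. The intervals of 15 of the 17 lay within 2-fold. The median SE was 0.17 here, against 0.38 for the paternal and 0.29 for the maternal group.

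Gnas, the stimulatory G protein subunit, read 16154 and 15284 in AB6F1 and 15164 and 16895 in B6AF1, with overlap, at -0.03 ± 0.12 (SE; 95% interval -0.30 to 0.25). Its 4 other probe sets were dim. Slc38a4, an amino acid transporter abundant in hepatocytes, read 15861 and 18420 against 19292 and 21082. The crosses did not overlap for Slc38a4, at -0.24 ± 0.13 (SE; 95% interval -0.54 to 0.06; limma adjusted p = 0.601), and a second probe set gave -0.07. Ddc, the decarboxylase that makes dopamine and serotonin and is imprinted in fetal heart, read 5320 and 8426 in AB6F1 against 8711 and 7572 in B6AF1. The arrays overlapped, and the Ddc difference of -0.28 ± 0.21 (SE) was 0.05 without AB6F1 replicate 1.

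Ppp1r9a, the actin-binding protein neurabin, had the largest difference of these 17 genes. It read 97.2 and 160 in AB6F1 and 212 and 200.5 in B6AF1, without overlap, at -0.73 ± 0.35 (SE; 95% interval -1.54 to 0.09; limma adjusted p = 0.553), and its second probe set above the filter gave -0.55. Tfpi2, a serine protease inhibitor of the same domain, read 10059 and 10027 against 10291 and 8124, at 0.14 ± 0.14 (SE). Blcap, a small membrane protein whose intron holds the paternal gene Nnat, read 835 and 974 in AB6F1 and 1005 and 1225 in B6AF1, without overlap, at -0.30 ± 0.17 (SE; limma adjusted p = 0.615).

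In the domain of the noncoding RNA Kcnq1ot1 on chromosome 7, 5 members were tested and did not share a direction. Beside Slc22a18 and Cdkn1c, Tssc4 had 320 and 341 in AB6F1 and 407 and 381 in B6AF1, without overlap, at -0.25 ± 0.19 (SE). The tetraspanin Cd81 had 13594 and 14543 against 12444 and 14105, at 0.09 ± 0.12 (SE; 95% interval -0.20 to 0.37). The histone chaperone Nap1l4 had 1032 and 1067 against 992 and 977, at 0.09 ± 0.14 (SE), and here the higher arrays were both those of AB6F1. Kcnq1ot1 itself, Phlda2 and Ascl2 were dim.

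Further domain neighbours of tested members were Copg2, Ube3a and Slc22a2, all with overlapping arrays. Copg2, a coat protein of transport vesicles next to Mest, read 656 and 731 in AB6F1 and 582 and 745 in B6AF1, at 0.07 ± 0.18 (SE). Ube3a, a ubiquitin ligase read from the maternal copy in neurons, stood at 1876 and 2149 against 2229 and 1786, at 0.01 ± 0.16 (SE; 95% interval -0.36 to 0.38). The organic cation transporter Slc22a2, beside Igf2r, read 71.1 and 109 in AB6F1 and 83.4 and 83.1 in B6AF1, at 0.08 ± 0.47 (SE), with an interval from -1.03 to 1.19. The other tested members, Commd1, Gatm, Inpp5f, Qpct and Trappc9, lay between -0.0015 and 0.29, with overlapping arrays.

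Differences of the 15 tested members of the paternal and maternal groups were also turned by strain. The turned value is the level where the B6 copy would be expressed minus the level where the AJ copy would be. The expressed copy was taken from general knowledge and was not measured in these livers. On this scale 11 were above 0 and 4 below (Mest, Peg3, Grb10 and Meg3), with a median of 0.32 and a range from -0.57 to 0.98. The count was 9 of 15 without B6AF1 replicate 2 and 16 of 30 with dim genes kept, with medians of 0.20 and 0.072, and leaving out either AB6F1 array gave medians of 0.14 and 0.19. Without _x_at and _s_at probe sets the count was 9 of 14, with a median of 0.18. Igf2r, H13 and Plagl1, counted above 0, and Meg3, counted below, each had another probe set above the filter of opposite sign. Sequence differences of AJ within the probes were not examined, and their part in the result was not tested.

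**Figure D4:**
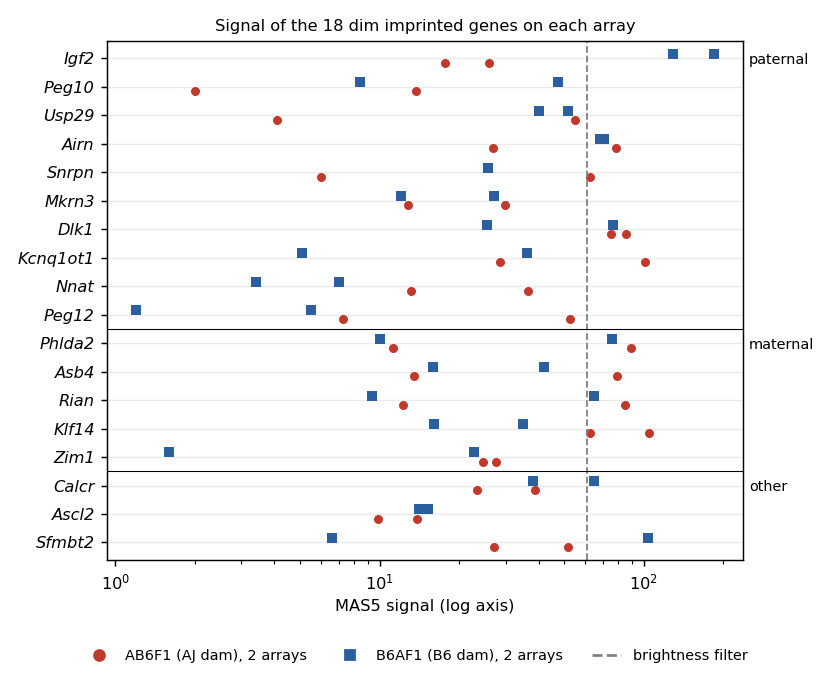
MAS5 signal on a log axis for the 18 dim imprinted genes, with 1 point for each array, circles for AB6F1 and squares for B6AF1, and a dashed line at the filter signal of 60.9. Igf2 is the one gene with both B6AF1 arrays above the line and both AB6F1 arrays below it, and Klf14 shows the reverse order.

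The 18 dim members were 10 paternal, 5 maternal and 3 of the last group. In 7 of them no array reached the filter signal. The median SE of their differences was 1.19 on the log2 scale, and no fold or difference is given for them. When dim genes were kept in the fit, 1 of the 18 had an unadjusted p under 0.05, against 8.41% of 18193 genes, and none passed after adjustment, against 0.143%.

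That gene was Igf2, the fetal growth factor, which is described here after its values were seen. Its brighter probe set read 17.7 and 26 in AB6F1 and 129 and 184 in B6AF1, where the paternal copy is that of AJ. Both B6AF1 arrays stood above the filter and both AB6F1 arrays below it. The limma adjusted p with dim genes kept was 0.341. The other Igf2 probe set was dim on every array, with 10.4 and 11.6 in AB6F1 and 9.5 and 8 in B6AF1. Klf14, a maternally expressed transcription factor also chosen by its values, read 105 and 62.4 in AB6F1 and 34.8 and 16 in B6AF1 (limma adjusted p = 0.616 with dim genes kept). The dim domain partners of tested members, among them Airn, Dlk1, Rian, Nnat, Peg10, Usp29 and Zim1, had arrays scattered on either side of or below the filter.

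A list of genes that act on imprints showed no called difference. It held genes that set or remove DNA methylation, such as Dnmt3a and Tet2, beside those that keep imprints through cell division. Of 23 listed, 18 were tested, 11 higher and 7 lower, with a median of 0.11, and 0 passed limma, against 0.213% of all genes. At an unadjusted p under 0.05 there were also 0, against 9.72%. The arrays of 8 of the 18, or 44.4%, stood apart by cross, against 41.2% of all genes. Trim28, the corepressor recruited by Zfp57, read 2045 and 1884 in AB6F1 and 2340 and 2247 in B6AF1, at -0.22 ± 0.12 (SE; limma adjusted p = 0.615). Dnmt1 read 497 and 375 against 367 and 311, at 0.36 ± 0.22 (SE; limma adjusted p = 0.653), and Arid4b, a subunit of a histone deacetylase complex, was at 0.46 ± 0.22 (SE). These 3 are among the 8. Zfp57 itself was dim and not tested, with 9.4 and 7.7 in AB6F1 and 9.6 and 8.2 in B6AF1.

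Factors of postnatal silencing in liver and their targets formed a list of 9, of which 5 were tested, 3 higher and 2 lower, with a median of 0.18. None passed limma over all genes and 1 of the 5, or 20%, had an unadjusted p under 0.05, against 9.72% of all genes. The crosses stood apart for 4 of the 5, against 41.2% of all genes. The gene of smallest p was Gpc3, a fetal glypican that lies on the X chromosome, which in these males comes from the mother. Gpc3 read 132 and 205 in AB6F1 and 77.6 and 41.7 in B6AF1, at 1.53 ± 0.50 (SE; limma adjusted p = 0.409), without overlap. Zbtb20, a zinc finger repressor of fetal genes in adult liver, read 3087 and 2890 against 2594 and 2669, at 0.18 ± 0.12 (SE; limma adjusted p = 0.658). Igf2bp3, a fetal RNA-binding protein, was at -0.45 ± 0.27 (SE; limma adjusted p = 0.635).

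Further genes imprinted elsewhere or lying beside these domains made a list of 28, of which 14 were tested, 5 higher and 9 lower, with a median of -0.04. Of these 0 passed limma, against 0.213% of all genes, and 0 had an unadjusted p under 0.05, against 9.72%. Casd1, beside Sgce, was at -0.23 ± 0.12, Tspan32, beside Ascl2, at -0.58 ± 0.32, and Jade1 at 0.27 ± 0.16 (SE), each with a limma adjusted p of 0.612 or more.

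The slices held other cell types beside hepatocytes, and in bulk RNA fewer cells of a type and less RNA per cell cannot be told apart. Hepatocyte markers were present on every array: 9 of 12 were measured, all above the filter, with a summed signal from 302063 to 344088 in AB6F1 and from 324212 to 374888 in B6AF1. Stellate cell and fibroblast markers, all 12 above the filter, summed to 17755 and 22029 in AB6F1 and to 14103 and 13336 in B6AF1. Of these 10 were higher in AB6F1, against 53.5% of all genes, and 8, or 66.7%, had an unadjusted p under 0.05, against 9.72%. The collagens Col3a1 (adjusted p = 0.00931) and Col1a2 (adjusted p = 0.0402) passed limma, 2 of 12 against 0.213% of all genes. Macrophage markers, 10 of 12 above the filter, summed to 17389 and 10947 against 7279 and 10194, and all 10 were higher in AB6F1, 7 of them, or 70%, at an unadjusted p under 0.05. None of the 10 passed limma (smallest adjusted p = 0.200), against 0.213% of all genes. Of the dim markers, Timd4 read 41.5 and 34 in AB6F1 against 66.2 and 115.9 in B6AF1, and Marco 9.8 and 45.1 against 11.2 and 18.6. The part of stellate and macrophage cells in the differences of the imprinted genes was not tested. Endothelial markers (7 of 8 above the filter) summed to 4442 and 3998 against 3446 and 4561, cholangiocyte markers (3 of 6) to 393 and 402 against 317 and 342, and lymphocyte markers (3 of 7) to 399 and 244 against 349 and 367. No marker with a probe set was listed at 0.

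**Figure D5:**
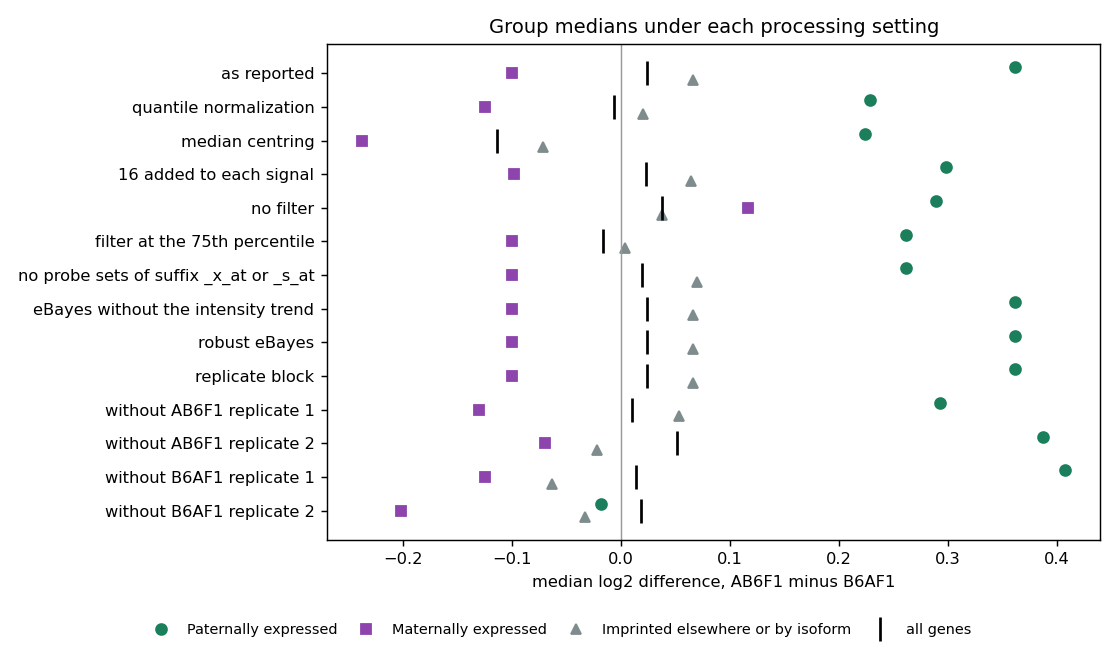
Median difference (log2, AB6F1 minus B6AF1) of the tested members of each group, and of all genes, under each way of processing. The paternal median stays above 0 except without B6AF1 replicate 2, where it is -0.02; it rests on 8 genes as reported, on 18 with no filter and on 1 with the filter at the 75th percentile.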

How the data were processed

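The deposited values are linear intensity values, 1 for each probe set and array, made with MAS5 according to the submitters' processing notes. From the values, the authors had scaled each array to a mean of 500 after dropping the lowest and highest 2% of probe sets, which hides any shift common to all genes. A genome build is not named in the sources used here. Of 45101 probe sets 34945 carried 1 gene symbol, updated through gene identifiers to RefSeq (GRCm38.p6). Log2 signals with no pseudocount were tested with limma 3.58.1 in R 4.3.3 (lmFit, eBayes with an intensity trend, two-sided, Benjamini-Hochberg over 11748 genes, threshold 0.05). Data of 11748 genes with 200 changed were simulated from the variances that limma itself had fitted. From these limma recovered 28.4% of changes of 2-fold and 69.9% of those of 4-fold, at a false share of 5.97%. Of the 95% intervals of the changed genes, 94.8% held the true value. Such data share the assumptions of the fit, so they cannot show how well these hold for the real arrays. P-values rest on the spread between 2 mice a cross, moderated by limma towards the spread of genes of like intensity. The fit had 4.965 prior and 2 residual degrees of freedom.

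The members, lists and tests were chosen with earlier results of these data known. Values on each array are given for the 12 members of smallest p, the 8 brightest and those that share a domain with another tested member. The parental groups follow general knowledge, not these data. Alternatives were quantile normalization, median centring, 16 added, the filter dropped or moved to the 75th percentile, no _x_at or _s_at probe sets, eBayes without trend or robust, a replicate block, each array left out, and other probe sets.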

Additional observations from a re-analysis of the deposited data

How the results depend on the processing

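No imprinted gene passed limma under any of the 13 settings, so that count was 0 throughout. The smallest adjusted p of a member ran from 0.0814 without AB6F1 replicate 2 to 0.859 without B6AF1 replicate 2. The count over all genes, 25 as reported, was 50 after median centring, 0 without the intensity trend (1044 genes at an unadjusted p under 0.05) and 1 to 241 when 1 array was left out (1 without either B6AF1 array, 79 without AB6F1 replicate 1 and 241 without AB6F1 replicate 2). The replicate block gave 62 calls over all genes. The labels give only replicate numbers and no pairing, and deviations of same-numbered arrays correlated at -0.027. No member was called with or without the block. Median centring lowered every difference by the same 0.14 on the log2 scale, which took the median of all genes from 0.02 to -0.11.

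The paternal median of 0.36 was 0.23 after quantile normalization, 0.22 after median centring and -0.018 to 0.41 with 1 array left out. Median centring moved all medians alike. Taken from the median of all genes, the paternal median was 0.34 and the maternal -0.12, both as reported and after median centring. The maternal median of -0.10 was -0.24 after median centring, 0.12 with no filter and -0.20 to -0.07 with 1 array left out. The median of the last group,  0.07 was -0.071 after median centring and -0.063 to 0.053 with 1 array left out.

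Of 331 recomputed values of 25 members, 298 kept sign and call and 33 changed sign, in 13 members. The filter settings, the eBayes settings and the replicate block leave each difference as it was. Values under these settings could change in call but not in sign. Through its common shift, median centring gave -0.052 for Cd81, -0.065 for Copg2, -0.10 for Meg3, -0.046 for Nap1l4, -0.056 for Slc22a2, -0.0022 for Tfpi2 and -0.13 for Ube3a. Quantile normalization gave 0.044 for Gnas, -0.090 for Meg3 and -0.045 for Slc22a2. Other probe sets gave 0.040 and 0.14 for H13, 0.20 for Igf2r, -0.22 and -2.01 for Meg3 and -0.21 for Ube3a. With 1 array left out, Cd81 ran from -0.0045 to 0.18, Copg2 from -0.10 to 0.25, Ddc from -0.61 to 0.053, Gnas from -0.10 to 0.051, H13 from -0.23 to 0.14, Magel2 from -0.34 to 1.18, Meg3 from -0.20 to 0.27, Ndn from -0.37 to 1.18, Slc22a2 from -0.23 to 0.39, Tfpi2 from -0.035 to 0.31 and Ube3a from -0.15 to 0.17. The cause of the sign changes under the other settings was not tested. Rasgrf1 ran from 0.65 to 1.30 and has no value without _s_at probe sets, since its other probe sets are dim; the filter at the 75th percentile left 16 members.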
